A study of Mus musculus with 15 samples.

Results

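Mertk, Tyro3, Axl, Gas6, Pros1, Mfge8, Itgav, Itgb5, Cd36 and Anxa2 encode receptors, bridging ligands and an annexin of phagocytosis. The set is named for the uptake of shed photoreceptor outer segments by the retinal pigment epithelium (RPE). Its genes were selected by symbol alone as 10 of the 40481 genes in the deposited count table. RNA was sequenced from the RPE/choroid complex of mouse eyes, the pigment epithelium together with the vascular tissue beneath it, in 7 control and 8 INK-ATTAC libraries. All mice carried Abca1/Abcg1 flox/flox alleles, in cholesterol efflux transporter genes, and LysM-Cre, a Cre recombinase driven from the Lyz2 gene in myeloid cells, so the deletion is shared by both groups. INK-ATTAC mice additionally carried a transgene that places an FKBP-caspase 8 fusion under the p16Ink4a promoter, and AP20187, given i.p. in both groups, dimerizes the fusion and kills cells that use the promoter. For the INK-ATTAC mice the design text gives dosing on alternate days over 3 months. The ages of the mice are not given in the labels, and nothing in them ties each library to its own animal, so a p-value here reflects only how these samples spread. The comparison asks whether removal of p16Ink4a-positive cells, which accumulate in senescence, changed the tissue in mice with drusenoid deposits. Reads of Cdkn2a, the gene of p16Ink4a, numbered only 0 to 4 per library. Whether such cells were removed can therefore not be read from these counts.

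Photoreceptors shed the tips of their outer segments every day, and each RPE cell clears them by phagocytosis. The shed tips expose phosphatidylserine, which the bridging ligand Mfge8 links to the integrin of Itgav and Itgb5 for binding, and which Gas6 and Pros1 link to the receptor tyrosine kinase Mertk for engulfment. Loss of Mertk leaves shed debris under the retina and leads to photoreceptor degeneration. Tyro3 and Axl are the other kinases of the Mertk family, Cd36 is a scavenger receptor that takes part in internalization, and Anxa2 is a membrane-binding annexin involved in early phagosome formation. Choroidal macrophages, endothelium and stroma express several of these genes too, so in a bulk tissue fewer cells of a type and less RNA per cell cannot be told apart.

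Total counts per library ranged from 39121503 to 65065950, and each of the 10 genes had between 555 and 26416 reads in every library. Levels are given as CPM, counts relative to the scaled size of the library. RPE markers differed widely in level. The visual-cycle isomerase Rpe65 lay between 4489 and 7411 CPM, and Ttr, the thyroxine and retinol carrier, between 21599 and 31514 CPM. Best1, on the same list, was scarce at 1.09 to 4.57 CPM. Markers of other cells were present as well, with Csf1r of macrophages between 179 and 273 CPM and Pdgfrb of pericytes between 17.4 and 66.2 CPM. Of the marker lists for 12 cell types, no gene was at 0 in all libraries. Skeletal muscle markers (13 of 13 higher in INK-ATTAC libraries, 4 at an unadjusted p under 0.05) and lens markers (11 of 11 higher, 8 at that level) leaned to one group, against 4.14% of all genes at that level, although none passed edgeR's adjusted test. Adipocyte markers were higher in 8 of 8, rod markers lower in 14 of 15 and macrophage markers lower in 13 of 15, with 0 at that level in each list and median log2 fold changes of 0.17, -0.25 and -0.041. For muscle and lens the medians were larger, at 0.86 and 2.66. The summed level for muscle was 264 to 2275 CPM in controls and 653 to 3275 CPM in INK-ATTAC libraries. For lens it was 21.2 to 849 CPM and 21.9 to 4084 CPM. Muscle, adipocyte, rod and macrophage levels were tried as covariates, and the part of lens was not tested.

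Compared per kilobase of merged exon (CPM per kb), Anxa2 was the most abundant of the 10 genes and Tyro3 the least. This scale divides by all annotated exons of a gene, whichever of them the tissue uses, so comparisons between genes are approximate. In controls Anxa2 averaged 112 ± 16.0 CPM per kb (SD, n = 7) and Tyro3 3.53 ± 1.05 CPM per kb. The ligands Mfge8 (44.0 ± 13.2) and Gas6 (43.9 ± 12.4) came next on that scale, with Cd36 at 36.6 ± 5.59, Itgav at 24.4 ± 3.62 and Mertk at 23.03 ± 2.45 CPM per kb. Itgb5 (17.4 ± 3.84), Pros1 (16.5 ± 3.76) and Axl (14.8 ± 3.56) lay lower. Only the steps from Anxa2 to Mfge8 and from Axl to Tyro3 separated the control ranges completely. The other neighbours in this order overlapped, and Mfge8 was above Gas6 in only 2 of 7 controls and Itgav above Mertk in 3 of 7. Cd36 exceeded Itgav in 7 of 7 controls although their ranges overlapped. Within the kinase family, Mertk supplied a median of 56.4% of the summed per-length level in controls and 53.8% in INK-ATTAC libraries. Axl supplied 37.4% and 37.7%, and Tyro3 8.04% and 7.98%.

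**Figure D1:**
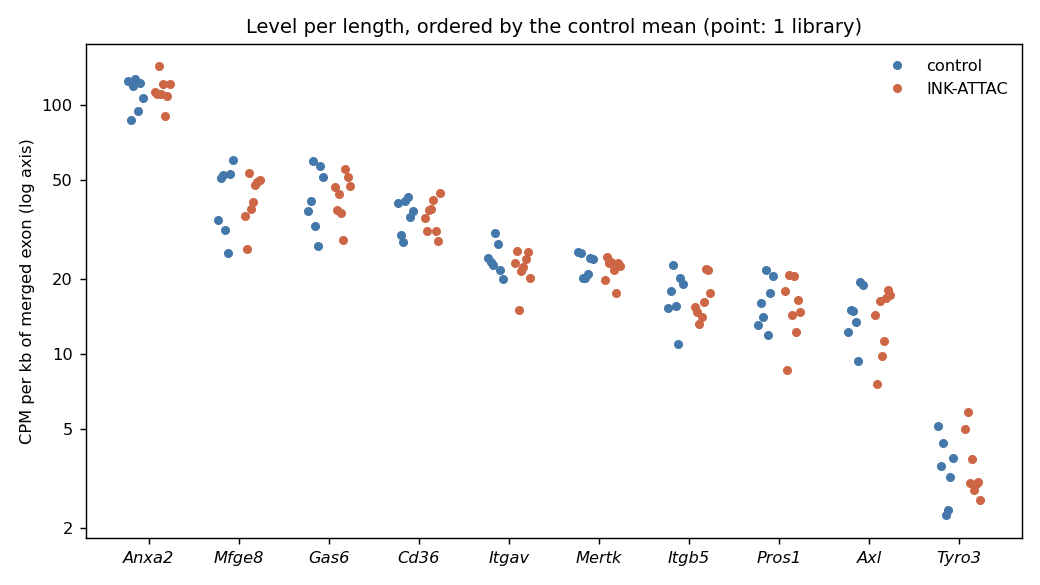
Level of each of the 10 genes in CPM per kb of merged exon on a log axis, 1 point per library, control (7) and INK-ATTAC (8), ordered by the control mean. Anxa2 lies above every other gene, Tyro3 lies below them, and the groups overlap for every gene.

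For none of the phagocytosis genes was the difference between INK-ATTAC and control libraries larger than the spread between libraries. edgeR's quasi-likelihood test called 0 of the 10 genes at an adjusted p under 0.05, against 0.0% of the 17991 genes tested, and 0 of the 10 at an unadjusted p under 0.05, against 4.14% (745 genes). Other tools called 0 of the 10 as well (DESeq2, limma-voom, and limma-voom with sample quality weights). They called 6, 0 and 2 genes of the whole table and gave 758, 781 and 1068 genes an unadjusted p under 0.05. The ranges of the groups overlapped for all 10 genes, and 0.0222% of all genes had ranges that did not overlap. Fold changes are given on the log2 scale as INK-ATTAC against control. They ran from -0.13 for Itgav to 0.042 for Anxa2, with 8 lower, 2 higher and a median of -0.045, while 50.2% of all genes were lower and the median over all genes was -0.00097. The adjusted p was 1.00 for each of the 10 genes, and all tests were two-sided.

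**Figure D2:**
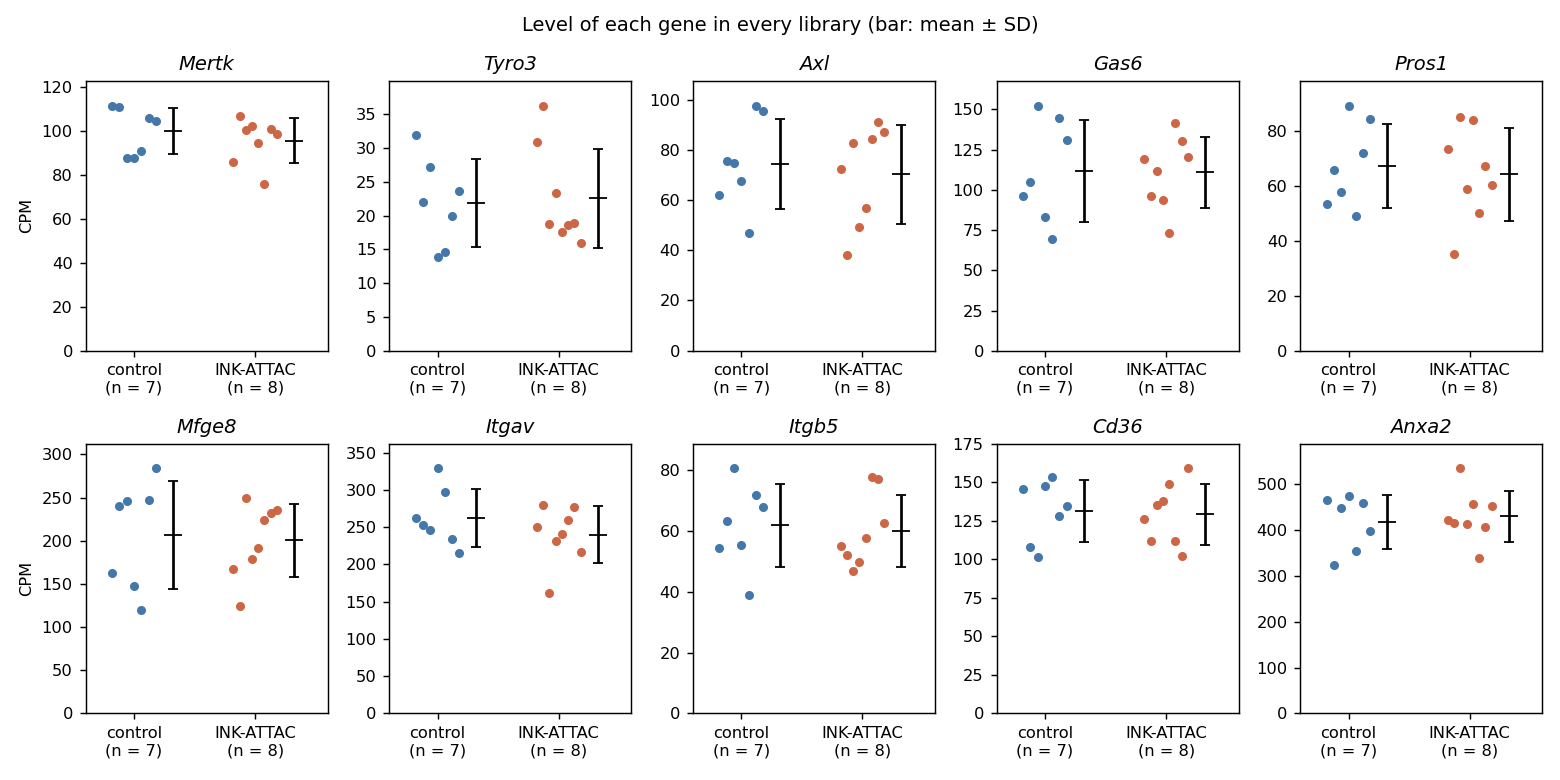
Level of each gene in CPM (axes from 0) in every library, with the mean and SD of 7 control and 8 INK-ATTAC libraries beside the points. The points of both groups cover overlapping ranges in every panel, and Mertk and Cd36 spread less around their means than Axl, Gas6, Mfge8 and Tyro3.

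Mertk, the engulfment receptor (chromosome 2, 128698956 to 128802894, plus strand, GRCm38), was the steadiest gene of the set. Its lowest, median and highest levels were 87.8, 104.7 and 111.5 CPM in controls and 76.0, 99.4 and 106.8 CPM in INK-ATTAC libraries. INK-ATTAC 1 (85.7 CPM) and INK-ATTAC 6 (76.0 CPM) lay below the control range and the rest inside it. Group means were 99.9 ± 10.6 (SD, n = 7) and 95.6 ± 10.1 CPM (SD, n = 8), and edgeR's log2 fold change was -0.063 (SE 0.081). Its coefficient of variation over all 15 libraries was 10.5%, and only 17.8% of tested genes had a smaller SD of log2 CPM. In the authors' deposited table its log2 fold change was -0.11, with confidence limits of -0.27 and 0.050.

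Axl, a kinase of the same family found in vascular and immune cells (chromosome 7, 25757273 to 25788705, minus strand), varied far more. Control levels were 47.1, 74.9 and 97.6 CPM (lowest, median, highest), against 38.1, 77.5 and 91.1 CPM in INK-ATTAC libraries, so that the whole range spanned 2.56-fold. Low libraries occurred in both groups, with control 5, INK-ATTAC 2 and INK-ATTAC 4 at the bottom. The log2 fold change of -0.082 (SE 0.18) was within that spread. Tyro3, the least abundant of the kinases here (chromosome 2, 119797733 to 119818104, plus strand), spanned 2.61-fold. It ran through 13.9, 22.0 and 31.9 CPM in controls and 16.0, 18.8 and 36.3 CPM in INK-ATTAC libraries. The 2 highest libraries of each group stood well above the group's median, and the groups overlapped almost completely (log2 fold change 0.041, SE 0.20).

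The proportions between the kinases shifted from library to library, and no ratio passed a test between the groups. Per length, Mertk exceeded Axl in every library, by 1.05-fold to 3.25-fold, with medians of 1.51 in controls and 1.39 in INK-ATTAC libraries. Without division by length, Mertk was 0.903-fold (INK-ATTAC 6) to 2.80-fold of Axl, so the order depends on the lengths used. The mean log2 ratio differed between the groups by 0.038 (exact permutation test over 6435 splits, p = 0.876). Mertk exceeded Tyro3 by 3.97-fold to 9.03-fold (group difference in log2 ratio -0.10, exact permutation test, p = 0.618). Relative to the mean log2 level of 16 RPE markers, Mertk differed by -0.072 (exact permutation test, p = 0.366). The 8 ratios examined, which include those below, all had a p of 0.919 after adjustment.

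None of the 3 ligands passed the test either. Gas6, the vitamin K-dependent ligand of all 3 kinases (chromosome 8, 13465374 to 13494490, minus strand), ranged from 69.4 to 152 CPM in controls (median 105) and from 73.3 to 142 CPM in INK-ATTAC libraries (median 116). Controls 3, 6 and 7 and INK-ATTAC 6 and 7 were the high libraries. Between the groups the log2 difference was -0.010 (SE 0.17). Pros1, protein S, the other vitamin K-dependent ligand, which activates Mertk and Tyro3 (chromosome 16, 62854307 to 62929346, plus strand), had levels of 48.9, 65.8 and 89.3 CPM in controls and 35.2, 63.7 and 85.0 CPM in INK-ATTAC libraries. INK-ATTAC 2 was the lowest library of either group, and the log2 fold change was -0.068 (SE 0.17). Per length, Gas6 exceeded Pros1 by 1.40-fold to 4.54-fold, in every library. Without division by length it was 0.871-fold (INK-ATTAC 5) to 2.83-fold of Pros1. The log2 ratio of Gas6 to Pros1 differed between groups by 0.10 (exact permutation test, p = 0.713). Mfge8, the secreted bridge to the integrin (chromosome 7, 79133768 to 79149060, minus strand), ran from 120.0 to 283.9 CPM in controls (median 240.1) and from 124 to 249.9 CPM in INK-ATTAC libraries (median 207). The controls fell into 4 at 240.1 CPM or more and 3 at 162 CPM or less, while 6 of the 8 INK-ATTAC libraries lay between those values (log2 fold change -0.045, SE 0.18).

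Of the integrin subunits, Itgav (alpha v, chromosome 2, 83724397 to 83806916, plus strand) had the fold change of greatest size in the set. Control levels were 215, 252 and 329 CPM, and INK-ATTAC levels 161, 245 and 279 CPM. INK-ATTAC 3 lay below every other library and controls 4 and 5 above them, and the rest overlapped. Means of 262 ± 38.9 (SD, n = 7) and 240 ± 38.2 CPM (SD, n = 8) gave a log2 fold change of -0.13 (SE 0.11). Itgb5 (beta 5, chromosome 16, 33829665 to 33949338, plus strand) had levels of 39.1, 63.5 and 80.7 CPM in controls and 47.0, 56.4 and 78.0 CPM in INK-ATTAC libraries, with a log2 fold change of -0.046 (SE 0.14). Per length Itgav exceeded Itgb5 in each library, by 1.01-fold to 2.51-fold, and the group difference in log2 ratio did not pass (-0.10, exact permutation test, p = 0.637). Alpha v also pairs with other beta subunits, which this ratio does not distinguish.

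Cd36 (chromosome 5, 17781690 to 17888801, minus strand), which also serves fatty acid uptake, had levels of 102, 135 and 154 CPM in controls and 102, 131 and 159 CPM in INK-ATTAC libraries. It was among the narrow genes, with a 1.57-fold range and almost equal group limits (log2 fold change -0.024, SE 0.11). Anxa2 (chromosome 9, 69453620 to 69491795, plus strand) had levels of 324, 448 and 474 CPM in controls and 338, 418 and 534 CPM in INK-ATTAC libraries. INK-ATTAC 3 alone exceeded the control range, and the log2 fold change between groups was 0.042 (SE 0.097). Anxa2 overlaps the antisense gene Gm16144 over 98 exonic bases (2.63% of its exon length), Itgav overlaps Gm13684 over 634 (5.90%) and Gas6 overlaps Tmem255b over 34 (1.33%). The strand setting of the counting is not given, so reads in those stretches cannot be assigned.

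The authors' deposited table lists all 10 genes, with adjusted p between 0.831 (Mertk) and 0.980 (Tyro3). Its confidence limits included 0 for every one of them. The widest were those of Tyro3 (-0.42 to 0.35) and Axl (-0.55 to 0.19), and the narrowest those of Mertk. Tyro3 and Cd36 had the opposite sign in the authors' deposited table (-0.032 and 0.054) from that in the edgeR fit. With limma-voom and sample quality weights they were -0.036 and 0.045, with the signs of the authors' values. The sign of 8 of the 10 genes turned under at least 1 other setting, and Mertk and Itgav were lower in INK-ATTAC libraries under all 34 settings tried. With the skeletal muscle marker level as a covariate, 5 of the 10 fold changes were above 0 and Mfge8 moved to 0.22.

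**Figure D3:**
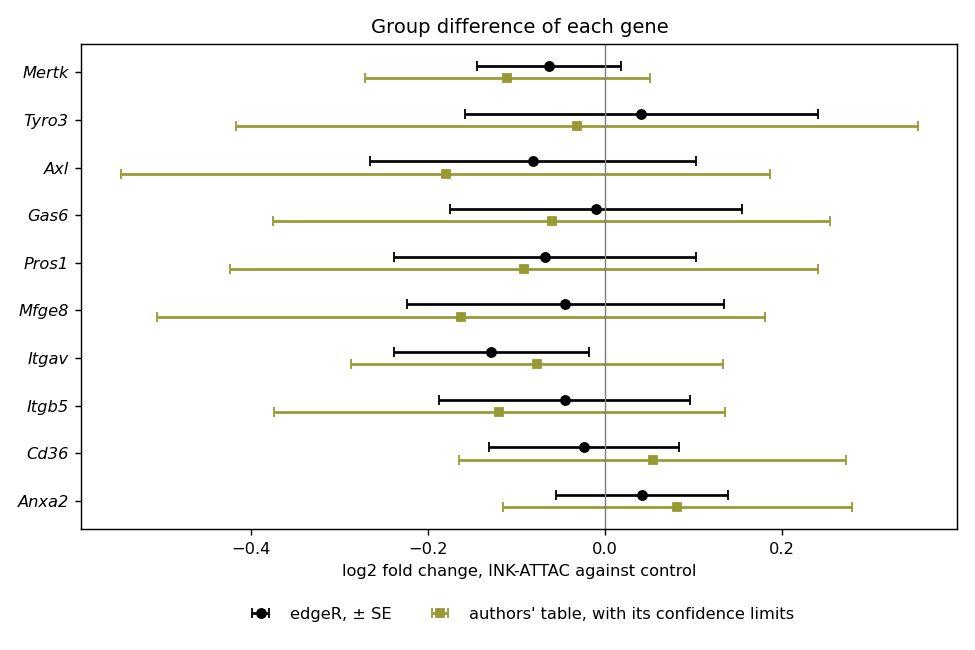
Log2 fold change of each gene, INK-ATTAC against control, from edgeR with SE (black circles) and from the authors' deposited table with its confidence limits (olive squares). Each olive interval crosses 0, and the values of both sources lie between -0.18 and 0.082.

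The other genes of the engulfment pathway were not called either. Of 59 listed genes for eat-me signal recognition, adaptor signalling, actin remodelling and phagosome maturation, 57 were tested. edgeR called 0, against 0.0% of all genes, and 2 had an unadjusted p under 0.05, both lower, against 4.14% of all genes. In all, 41 were lower and 16 higher, and their median was -0.035 (log2), against -0.00097 over all genes. With the skeletal muscle marker level as a covariate the split became 27 higher of 57 and the median -0.0018. Adam10, the protease that sheds Axl among other substrates, had control and INK-ATTAC means of 57.6 ± 7.10 and 50.2 ± 4.89 CPM (SD, n = 7 and 8), that is, -0.20 on the log2 scale (SE 0.082, edgeR, adjusted p = 1.00). Dock1, the exchange factor that activates Rac during engulfment, averaged 43.6 ± 4.64 and 38.9 ± 2.51 CPM (-0.16, SE 0.069, edgeR, adjusted p = 1.00). The next lowest p belonged to Socs1, a feedback inhibitor of cytokine signalling (0.68, SE 0.32), the adaptor Crk (-0.11, SE 0.060), Ggcx, the gamma-carboxylase that Gas6 and Pros1 need for activity (-0.19, SE 0.10), and the melanosome and phagosome motor Myo5a (-0.16, SE 0.093). Among 16 vitamin K-dependent proteins and their enzymes, 10 were tested, and edgeR called 0, with 0 at an unadjusted p under 0.05. They were split into 5 higher and 5 lower, from F10, coagulation factor X (-0.48, SE 0.54), to the membrane Gla protein Prrg4 (0.24, SE 0.26). Both were scarce, F10 at 0 to 0.672 CPM and Prrg4 at 0.486 to 2.14 CPM, as was Socs1 at 0.491 to 3.07 CPM.

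Several of the genes varied together across the 15 libraries. Of 45 pairs among the 10 genes, 4 passed a permutation test on both Pearson's r and Spearman's rho after Benjamini-Hochberg adjustment over 187 relations computed, and all 4 lay among Axl, Mfge8, Gas6 and Itgb5. Axl and Mfge8 correlated at r = 0.856 (permutation p = 0.00013, adjusted 0.00347) and rho = 0.814 (p = 0.00042, adjusted 0.00977), and at r = 0.724 without the 2 libraries farthest from the median. Gas6 and Itgb5 gave r = 0.800 (permutation p = 0.00031, adjusted 0.0058) and rho = 0.782 (p = 0.00102, adjusted 0.0131), and 0.662 without 2 libraries. Axl and Gas6 gave r = 0.739 and rho = 0.789 (permutation p = 0.00164 and 0.00058, adjusted 0.0192 and 0.00986). For Gas6 and Mfge8, r was 0.736 and rho 0.711 (permutation p = 0.00201 and 0.00418, adjusted 0.0221 and 0.0411). Without 2 libraries, r was 0.676 for Axl and Gas6 and 0.669 for Gas6 and Mfge8. Itgb5 passed on both measures with Gas6 only. Axl and Itgb5 (r = 0.674, rho = 0.682) and Mfge8 and Itgb5 (r = 0.692, rho = 0.543) passed on r only. Mfge8 and Itgav ran in opposite directions (r = -0.638, rho = -0.768) and passed on rho only. Within groups the Gas6 and Mfge8 relation was r = 0.910 in the controls and 0.447 in INK-ATTAC libraries, and a difference between these was not tested. Control 5 was low in Axl, Gas6, Mfge8 and Itgb5 alike (47.1, 69.4, 120.0 and 39.1 CPM), and control 6 was above the control median in each of them (97.6, 145, 247 and 72.0 CPM). Mertk stood outside this group of genes: its r was -0.078 with Axl, -0.098 with Gas6, 0.103 with Mfge8 and -0.152 with Itgb5.

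The levels of these 4 genes followed the markers of vessel-wall cells in the same libraries. Against the mean log2 CPM of 11 pericyte and smooth muscle markers, Axl gave r = 0.901 and rho = 0.914 (permutation p = 2e-05 for both, adjusted 9.35e-04 and 0.00125). Mfge8 gave r = 0.882 and rho = 0.796 (permutation p = 1e-05, the smallest that the permutations can give, and 0.00086; adjusted 9.35e-04 and 0.0131). Gas6 gave r = 0.798 and rho = 0.871 (adjusted 0.0058 and 0.0015; permutation p = 0.0003 and 4e-05), and Itgb5 r = 0.773 and rho = 0.775 (adjusted 0.0109 and 0.0131; permutation p = 0.00064 and 0.00094). All 11 markers correlated positively with each of these 4 genes, from Des at 0.078 to Notch3 at 0.89 for Axl. Without the 2 libraries farthest from the median marker level, control 5 and INK-ATTAC 2, r was 0.804 for Axl, 0.744 for Mfge8, 0.798 for Gas6 and 0.690 for Itgb5. For Itgb5, r was 0.400 in 7 libraries of low Xist and 0.934 in 8 of high Xist, a difference that was not tested. Mertk gave r = -0.021 against this list, and Itgav -0.45, neither of which passed. Against 16 RPE markers, r was -0.65 for Axl, -0.35 for Mfge8, -0.37 for Gas6 and -0.33 for Itgb5. It was 0.38 for Mertk and 0.59 for Tyro3. None of these RPE relations passed after adjustment, and that of Axl was -0.42 without control 6 and INK-ATTAC 2. Single RPE markers went both ways, for Axl from Rlbp1 at -0.87 to Pmel at 0.71. Of the 16, 3 correlated positively with Axl, 4 with Mfge8, 5 with Gas6, 5 with Itgb5, 12 with Mertk and 13 with Tyro3.

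**Figure D4:**
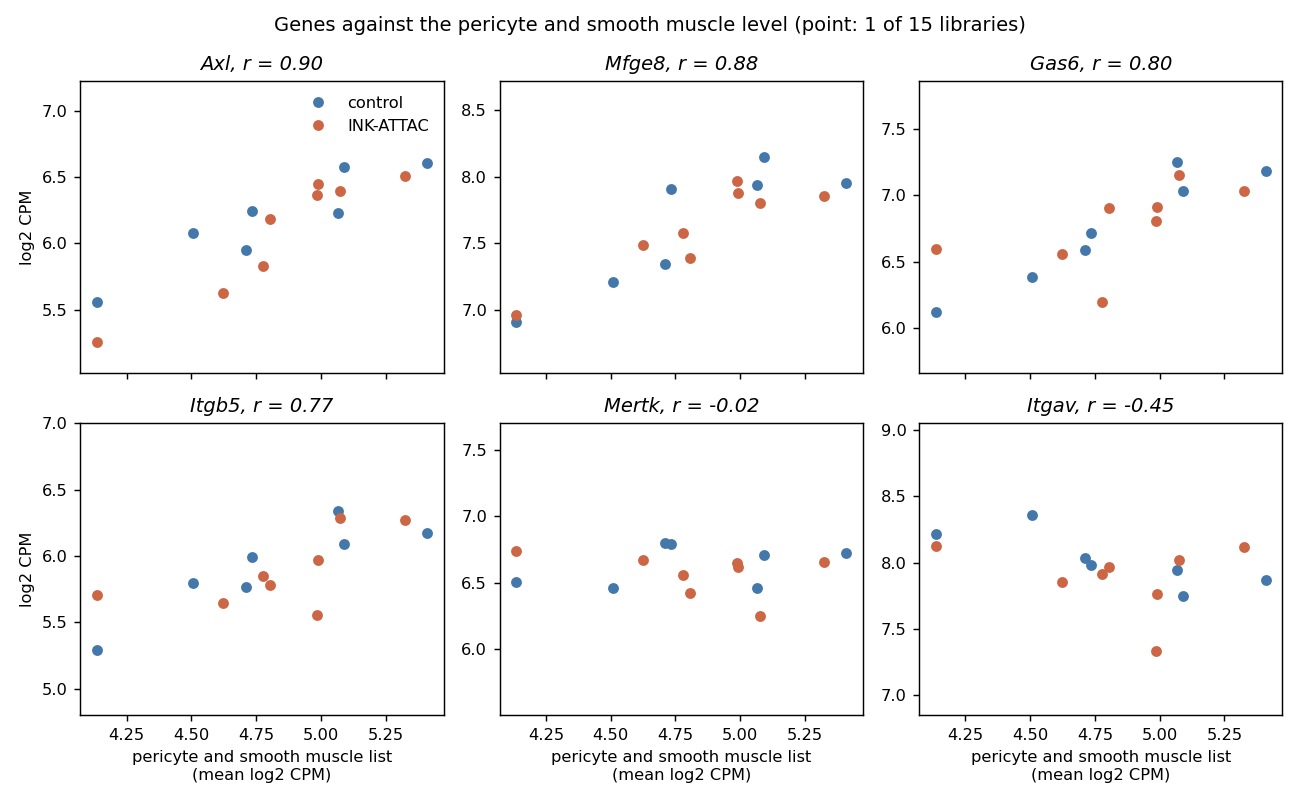
Log2 CPM of Axl, Mfge8, Gas6, Itgb5, Mertk and Itgav against the mean log2 CPM of the pericyte and smooth muscle markers, 1 point per library (7 control, 8 INK-ATTAC), with equal vertical spans. The first 4 genes increase with the marker level in both groups, whereas Mertk is level.

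Axl and Mfge8 also followed 12 endothelial markers, with r = 0.843 and rho = 0.896 for Axl (permutation p = 9e-05 and 4e-05, adjusted 0.0028 and 0.0015) and r = 0.848 and rho = 0.886 for Mfge8 (permutation p = 2e-05 for both, adjusted 9.35e-04 and 0.00125). Of these markers, 12 of 12 correlated positively with Mfge8 and 11 of 12 with Axl, Emcn being the exception. Without the 2 libraries farthest from the median, r was 0.768 for Axl and 0.827 for Mfge8. Gas6 (r = 0.635, rho = 0.636) and Itgb5 (r = 0.626, rho = 0.571) leaned the same way but did not pass. For each of them 11 of the 12 endothelial markers correlated positively. Axl further followed 10 fibroblast markers (r = 0.711, rho = 0.707; permutation p = 0.00305 and 0.0039, adjusted 0.03002 and 0.0405), but 3 of the 10 went the other way, from Dcn at -0.41 to Col3a1 at 0.97. The summed marker levels overlapped between the groups: pericyte and smooth muscle markers were 539 to 1028 CPM in controls and 620 to 1012 CPM in INK-ATTAC libraries, and endothelial markers 342 to 648 and 361 to 637 CPM. The part of these cells in the levels of Axl, Mfge8, Gas6 and Itgb5 was not tested.

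Base composition moved with the same genes. The GC contrast of a library is the mean log2 CPM of genes in the top quartile of GC content (above 54.2%) minus that of genes in the bottom quartile (below 45.0%), with 4496 genes in each. It was lowest in control 5 (-0.71) and highest in INK-ATTAC 6 (0.030). Gas6 (56.6% GC) followed it with r = 0.899 and rho = 0.921 (permutation p = 2e-05 for both, adjusted 9.35e-04 and 0.00125), Itgb5 (57.0% GC) with 0.852 and 0.814 (permutation p = 8e-05 and 0.00042, adjusted 0.0028 and 0.00977), and Axl (54.2% GC) with 0.667 and 0.739 (permutation p = 0.00626 and 0.00216, adjusted 0.0471 and 0.0238). Mfge8 (56.2% GC) gave r = 0.777 and rho = 0.661, of which only r passed (adjusted 0.0111 and 0.0764). Tyro3 has a similar composition (55.4% GC) and gave r = 0.20, while the GC-poor genes Cd36 (38.4% GC), Itgav (43.5% GC) and Pros1 (43.4% GC) gave -0.63, -0.36 and 0.043. None of these 4 passed, and Itgav gave 0.066 without controls 4 and 5. The pericyte and smooth muscle level was itself related to the contrast (r = 0.757, rho = 0.821; permutation p = 0.00122 and 0.00033, adjusted 0.0152 and 0.00977). Base composition and the share of vessel-wall cells cannot be told apart for these genes in these libraries.

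Pros1 and Tyro3 followed other markers. Pros1 followed 9 Muller glia markers with r = 0.816 and rho = 0.807 (permutation p = 0.0002 and 0.00047, adjusted 0.0047 and 0.00977) and 8 Schwann cell markers with r = 0.720 and rho = 0.775 (permutation p = 0.00227 and 0.00105, adjusted 0.0236 and 0.0131). Without 2 libraries these were 0.834 and 0.593. Positive values were found for 7 of the 9 Muller glia markers and 7 of the 8 Schwann markers. Rlbp1, which the RPE also expresses, was the lowest at -0.49, and the glutamate transporter gene Slc1a3 the highest at 0.79. Rlbp1 stands on the RPE list as well, and Sox10 on both the Schwann and the melanocyte list. The melanocyte level gave r = 0.764 for Pros1, which fell to 0.535 without INK-ATTAC 2 and 3, and its rho did not pass (adjusted 0.0764). Tyro3 followed 8 adipocyte markers (r = 0.769, rho = 0.793; permutation p = 0.0009 and 0.00055, adjusted 0.0120 and 0.00986), all 8 of them positively, from Plin4 at 0.40 to Cfd at 0.80. The relation was 0.729 without control 7 and INK-ATTAC 2. Adipocyte transcripts were scarce, with Adipoq between 0.166 and 6.52 CPM, and Plin1, Lep, Adrb3 and Ucp1 were too low to be tested. Mertk, Itgav, Cd36 and Anxa2 passed on both measures with none of the 12 marker lists. Itgav against lens markers (r = -0.67, rho = -0.55) and Anxa2 against them (r = 0.67, rho = 0.51) passed on r only, and without control 2 and INK-ATTAC 3 r was -0.51 and 0.40. INK-ATTAC 3 had the highest lens level, the highest Anxa2 and the lowest Itgav. The part of any of these cells in the levels of Pros1 and Tyro3 was not tested.

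**Figure D5:**
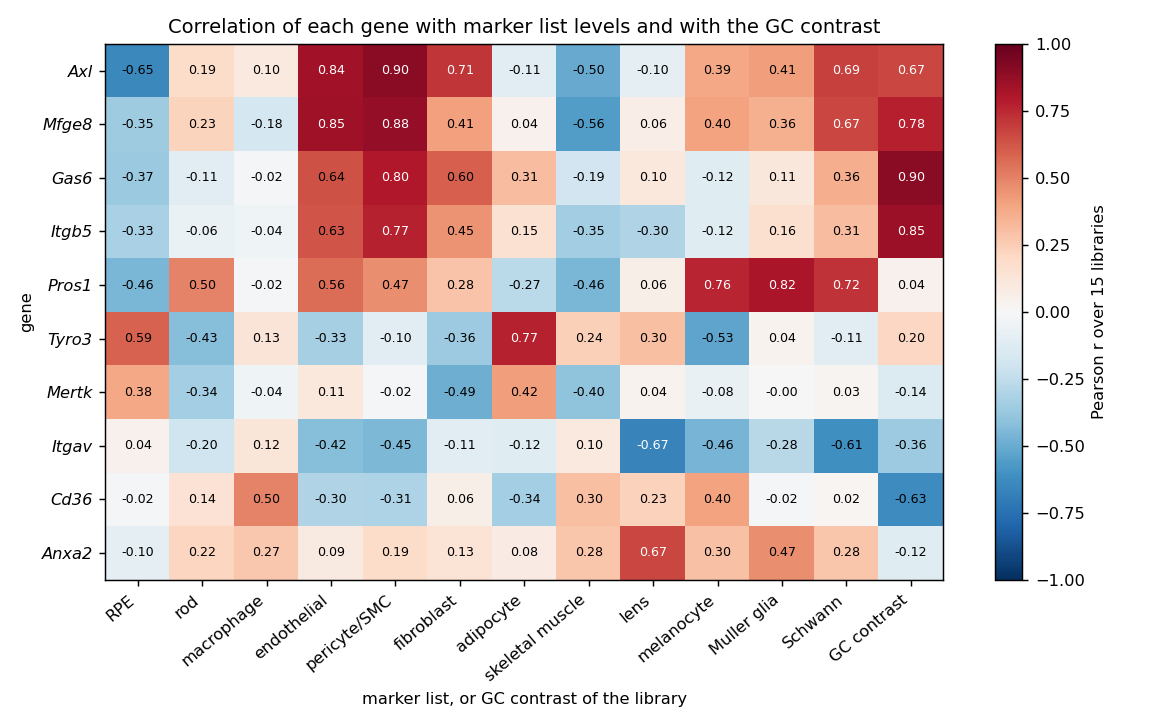
Pearson r over 15 libraries between the log2 CPM of each gene (rows) and the mean level of each of 12 marker lists or the GC contrast (columns), from blue (-1) to red (1). Axl, Mfge8, Gas6 and Itgb5 share high values for pericyte and smooth muscle markers, Pros1 is highest for Muller glia and Tyro3 for adipocytes, and the Mertk row holds no value beyond -0.49.

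The sequences immediately upstream of the genes that varied together are given beside that of Mertk, which did not, so that their make-up can be compared. Each is the 250 bases before the start in RefSeq (GRCm38.p6), read 5′ to 3′ on the gene's strand, with GC boxes (GGGCGG or CCGCCC, that is, the motif on either strand, overlaps allowed) in capitals. They lie at chr7:25788734-25788983 (minus strand, Axl), chr8:13494536-13494785 (minus strand, Gas6), chr7:79149061-79149310 (minus strand, Mfge8), chr16:33829415-33829664 (plus strand, Itgb5) and chr2:128698665-128698914 (plus strand, Mertk).
Axl: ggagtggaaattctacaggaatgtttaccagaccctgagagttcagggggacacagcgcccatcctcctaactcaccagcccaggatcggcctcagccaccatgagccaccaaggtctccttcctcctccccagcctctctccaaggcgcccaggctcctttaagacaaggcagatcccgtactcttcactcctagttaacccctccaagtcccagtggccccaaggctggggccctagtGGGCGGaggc
Gas6: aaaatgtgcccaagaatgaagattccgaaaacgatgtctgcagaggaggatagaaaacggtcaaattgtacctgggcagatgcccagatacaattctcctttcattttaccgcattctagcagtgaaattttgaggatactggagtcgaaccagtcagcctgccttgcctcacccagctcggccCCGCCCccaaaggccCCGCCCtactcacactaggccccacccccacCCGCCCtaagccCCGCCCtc
Mfge8: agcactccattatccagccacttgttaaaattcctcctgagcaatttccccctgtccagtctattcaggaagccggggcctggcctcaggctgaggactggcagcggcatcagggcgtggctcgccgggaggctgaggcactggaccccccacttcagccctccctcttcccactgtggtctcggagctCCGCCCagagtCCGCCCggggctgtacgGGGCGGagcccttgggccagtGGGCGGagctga
Itgb5: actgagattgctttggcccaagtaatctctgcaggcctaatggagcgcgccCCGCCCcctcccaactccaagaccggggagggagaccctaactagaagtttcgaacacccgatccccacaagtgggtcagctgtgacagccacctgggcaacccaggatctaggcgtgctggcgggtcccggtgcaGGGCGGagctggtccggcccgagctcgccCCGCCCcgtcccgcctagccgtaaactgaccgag
Mertk: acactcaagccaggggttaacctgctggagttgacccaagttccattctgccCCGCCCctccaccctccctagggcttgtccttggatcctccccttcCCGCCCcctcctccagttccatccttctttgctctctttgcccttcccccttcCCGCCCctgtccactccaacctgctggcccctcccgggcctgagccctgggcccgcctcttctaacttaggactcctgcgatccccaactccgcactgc

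GC boxes numbered 1 in the Axl sequence, 4 in Gas6, 4 in Mfge8, 3 in Itgb5 and 3 in Mertk. Of all 32851 promoter sequences of the same length, 32.7% held at least 1 and 8.47% at least 3. These promoters cover 27025 gene symbols, against 17991 genes tested here, so that background was not limited to the tested genes. Gas6 carries its 4 boxes within the stretch nearest the start. Among the other genes Pros1 had 5, Tyro3 3, Anxa2 3, Cd36 2 and Itgav 0. The windows of Tyro3 (chr2:119799264-119799513) and Cd36 (chr5:17835897-17836146) lie inside the gene spans given above, before an internal start. That of Anxa2 (chr9:69453433-69453682) crosses the first base of its span. GC content was 60.0% for Axl, 54.8% for Gas6, 65.2% for Mfge8 and for Itgb5, and 63.6% for Mertk, against a median of 52.4% over all promoters. The letters TAATCC and CATGTG, searched on both strands, occurred in none of the 10 windows (6.25% and 12.3% of all promoters), and TATAAA occurred in Anxa2 alone (12.4% of all).

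The genes with the most similar pattern over the 15 libraries, restricted to genes whose log2 CPM averaged at least 1, differed from gene to gene. For Axl they were the glypican gene Gpc4 (r = 0.973) and the fibrillar collagen gene Col3a1 (0.972), and for Gas6 the procollagen protease gene Adamts2 (0.972) and the focal adhesion gene Zyx (0.962). Mfge8 was closest to the adhesion molecule gene L1cam (0.955) and Fermt3, a kindlin of blood cells (0.949), and Itgb5 to Dgcr2 (0.956) and Selenon (0.949). The pattern of Itgav was most like those of the monocarboxylate transporter gene Slc16a1 (0.977) and Abhd2 (0.970), and that of Pros1 like Nrcam (0.927) and Pamr1 (0.911). Tyro3 was closest to Ifitm10 (0.921) and the folate transporter gene Slc46a1 (0.910). Mertk had lower values, with Nedd9 (0.840) and the motor gene Myo5b (0.834), as had Cd36 with Pdik1l and Pigk (0.875 each) and Anxa2 with Tmem173 (0.832) and Utp4 (0.802). These values describe likeness across these libraries, whose totals and GC contrast differ.

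The libraries also fell into classes by Xist, the RNA of the inactive X chromosome, which the labels do not name: 3 control and 4 INK-ATTAC libraries were low and 4 of each group high. Of the 10 genes Tyro3 differed most by class, with 18.7, 27.2 and 36.3 CPM (lowest, median, highest) in the 7 libraries of low Xist and 13.9, 18.1 and 23.7 CPM in the 8 of high Xist. The ranges overlapped, and with group in the model the log2 difference of low against high was 0.60 (SE 0.14). Adjusted over all genes, edgeR's p was 0.133, so the gene was not called, against 0.178% of all genes called for class (32 genes). Within the classes the adipocyte relation of Tyro3 was r = 0.864 for low and 0.757 for high. Itgb5 showed opposite group differences in the classes. Its mean at low Xist was 66.2 ± 13.4 CPM for controls (SD, n = 3) against 51.0 ± 3.42 for INK-ATTAC (n = 4), which is -0.36 in mean log2 CPM. At high Xist the means were 58.6 ± 14.8 and 68.9 ± 10.2 CPM (n = 4 each), which is 0.26. The difference between them, -0.62, had p = 0.0335 in an exact permutation test within classes (2450 arrangements), and 0.335 after adjustment over the 10 genes, so it did not pass. Control 5, at 39.1 CPM, was the lowest of the high-Xist controls, and it was also the library of lowest GC contrast. The part of these measures in the Itgb5 values was not tested.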

How the data were processed

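RNA from the RPE/choroid complex was amplified with SMARTer chemistry, per the labels' protocols. The submitters' processing notes name bcl2fastq, DRAGEN, edgeR, limma and the build GRCm38. Versions, annotation release and strand setting were not given in the sources used here. The authors deposited raw counts per gene, not normalized per the file headers, in 40757 entries. Here 276 identical repeats were collapsed to leave 40481 genes. The authors' deposited table of their comparison holds log2 CPM, log2 fold changes, p-values and score columns of limma, per the file headers, and only its values for the 10 genes were used. Sample columns left unmapped numbered 0.

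Counts were scaled with TMM, filtered with filterByExpr (17991 genes) and tested with edgeR 4.0.16 in R 4.3.3 (quasi-likelihood F-test, group only, two-sided, Benjamini-Hochberg over all genes, threshold 0.05), and the fit was tested on simulated data. The SE is the absolute log2 fold change over the square root of F. No pair of libraries of a group agreed within sampling noise (lowest chi-square 29.9 per gene). Exon lengths, GC content and overlaps came from GENCODE M21. Log2 CPM used a prior count of 2, and correlations 100000 permutations in Python 3.11.15. Counts of amplified reads without molecular identifiers are not counts of molecules.

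The 10 genes were fixed by symbol and not by values, but they and all lists were chosen with earlier results of these data known. Genes named were these 10, the 6 of lowest p from the engulfment list and from the Gla protein list where described, and the 2 genes of most similar pattern for each of the 10. Markers named beyond these only give a list's level, and Cdkn2a is named for the study design. Alternatives were DESeq2 1.42.0, RLE scaling, other low-count filters, limma 3.58.1 voom with and without quality weights, a block by title number, covariates for Xist class and marker levels, each Xist class alone, and each library left out. Covariates for fibroblast, pericyte and smooth muscle, and macrophage level and for GC contrast, a block by the number in the description, and the test of the Xist class term itself were chosen after seeing the data. No protein sequences were used here.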

Additional observations from a re-analysis of the deposited data

How the results depend on the processing

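Across 34 settings (15 of them leaving out 1 library), none of the 10 genes was called and their lowest adjusted p was 0.715. The count over all genes, 0 in the edgeR fit, was 6 with DESeq2, 2 with limma-voom and sample quality weights, and 1 with the GC contrast as a covariate. Mertk (-0.11 to -0.0095) and Itgav (-0.19 to -0.063) kept their direction throughout. With the GC contrast covariate Axl moved to -0.23, Gas6 to -0.15, Mfge8 to -0.15 and Itgb5 to -0.17, and in libraries of low Xist alone Itgb5 was -0.37. Under these 2 settings Itgb5 had an unadjusted edgeR p under 0.05, the only one of the 10 genes to do so. At that level lay 1215 of 17991 genes with the GC contrast covariate and 909 of 18141 genes at low Xist. With the skeletal muscle covariate the sign turned for Tyro3 (-0.11), Axl (0.13), Gas6 (0.069), Pros1 (0.10), Mfge8 (0.22), Itgb5 (0.062) and Anxa2 (-0.0041). In libraries of high Xist alone it turned for Tyro3 (-0.027), Axl (0.049), Gas6 (0.12), Mfge8 (0.14), Itgb5 (0.23) and Anxa2 (-0.030), and in those of low Xist for Pros1 (0.098) and Cd36 (0.11). Tyro3 also turned with quality weights (-0.036) and the Xist class (-0.0056), adipocyte (-0.096) and rod (-0.076) covariates. Cd36 turned with quality weights (0.045) and the adipocyte (0.0025), macrophage (0.0077) and GC contrast (0.054) covariates, and Gas6 with limma-voom (0.012) and the pericyte and smooth muscle covariate (0.0030). The causes were not tested.

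Leaving out 1 library gave -0.10 to 0.14 for Tyro3, -0.18 to 0.00049 for Axl, -0.11 to 0.080 for Gas6, -0.14 to 0.013 for Pros1, -0.15 to 0.048 for Mfge8, -0.14 to 0.029 for Itgb5, -0.078 to 0.018 for Cd36 and -0.022 to 0.085 for Anxa2. For the log2 ratios it gave -0.10 to 0.13 (Mertk to Axl), -0.28 to 0.080 (Axl to Tyro3), -0.035 to 0.24 (Gas6 to Pros1), -0.18 to 0.039 (Itgav to Itgb5), and -0.14 to 0.094 and -0.14 to 0.025 for Mfge8 and Itgb5 to the RPE markers.

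Libraries of the 2 groups share title numbers, but same-numbered libraries deviated together in only 4 of 7 pairs (correlation over 0.1; range -0.10 to 0.29), and 1 of 7 controls correlated best with its own number. A fit with this replicate block called 0 genes (734 at an unadjusted p under 0.05) and 0 of the 10. The description fields number the controls 1 higher. Paired by those numbers, 2 of 7 correlations were over 0.1 (-0.15 to 0.23), 0 of 7 controls correlated best with its own number, and Xist class matched in 7 of 7 pairs (6 of 7 by title). That replicate block, added after seeing the data, called 0 genes (751 at an unadjusted p under 0.05), and the sign turned for Tyro3 (-0.032) and Mfge8 (0.014). With 7 and 8 libraries, the SE of the 10 fold changes was 0.081 to 0.20.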
